A study of Mus musculus with 30 samples.

Results

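Major histocompatibility complex (MHC) class II molecules are heterodimers that show peptides from endocytosed proteins to CD4+ T cells. Their genes are switched on together by CIITA, a coactivator that does not bind DNA itself and is held at the promoters by RFX, CREB and NF-Y proteins seated on the X and Y boxes. B cells and dendritic cells make CIITA constitutively, whereas many other cell types make it in response to IFNγ, with IRF1 among the factors involved. The genes described here are the transactivator Ciita, the invariant chain Cd74, the I-A chains H2-Aa and H2-Ab1, the I-E β chain H2-Eb1, the peptide exchange chains H2-DMa, H2-DMb1 and H2-DMb2, and the lysosomal thiol reductase Ifi30. H2-Aa, H2-Ab1, H2-Eb1 and the H2-DM genes lie together on chromosome 17, Ciita on chromosome 16 (10488178 to 10527564, plus strand, in the coordinates of the files, mm10), Cd74 on chromosome 18 and Ifi30 on chromosome 8 (70762774 to 70766663, minus strand). They were chosen by name and make up 9 of the 49315 genes counted. All 9 had at least 10 reads combined over the 24 libraries and were tested with 21138 genes in total.

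Bulk RNA was sequenced from 2 mouse tumor lines of C57BL/6 background, 6694c2 (C2 below), a clone of pancreatic ductal adenocarcinoma from female mice whose alleles included Pdx-cre, p53+/floxed and YFP-floxed, and B16F10 (B16 below), a melanoma line. Each line was left with vehicle or treated in culture for 24 h with 100 ng/mL IFNγ, 1000 U/mL IFNβ or 225 µg/mL STING agonist, an activator of the cytosolic DNA sensing pathway that leads to type I interferon. There were 3 libraries in each of the 8 groups, with between 15543131 and 32266795 reads on genes. The labels do not say whether the 3 libraries of a group came from separate cultures, so p-values measure only the spread between these libraries.

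Transcripts that define B cells were present in every library, and this touched most of the results below. Reads of 11 B-cell genes, among them Ms4a1 (CD20), Cd79a and Cd79b, summed to between 124 and 609 in a library. In the 18 libraries without IFNγ this sum ran from 6.30 to 27.2 unscaled counts per 1000000 reads on genes (CPM), a 4.31-fold range. It was lowest in B16 vehicle replicate 1 (6.30), C2 IFNγ replicate 2 (8.06), B16 IFNβ replicate 3 (9.36) and C2 STING agonist replicate 3 (11.8). B cells carry class II constitutively, and reads from B-cell RNA and from tumor cells cannot be told apart in the count of a gene. In bulk RNA, fewer cells of a type and less RNA per cell cannot be told apart either. The lines themselves matched their labels. The keratin genes Krt8, Krt18 and Krt19 in B16 libraries stood at a median of 0.108% to 1.09% of their mean level in C2. The pigment genes Tyrp1, Dct and Pmel in C2 libraries stood at a median of 0.0798% to 0.627% of their mean level in B16.

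IFNγ raised 7 of the 9 class II genes in each line, most of all Ciita in B16 and H2-DMb1 and Ciita in C2. In B16 the calls of H2-Aa, H2-Ab1 and H2-Eb1 depended on the fit and on the B-cell reads, as set out below, and those of Ciita, Cd74, H2-DMa and H2-DMb1 held in all alternative fits. In B16, 7 of the 9 genes rose, Ifi30 fell and H2-DMb2 did not pass the test, where 12% of all genes tested rose and 10.8% fell. In C2, 7 of the 9 rose, H2-DMb2 fell and Ifi30 did not pass the test, where 7.89% of all genes rose and 5.66% fell. The median log2 fold change of the 9 genes was 0.81 in B16 and 1.42 in C2, and the median over all genes was 0 in both. All tests across genes were edgeR quasi-likelihood tests with Benjamini-Hochberg adjustment over all genes tested, and a gene was called at an adjusted p below 0.05.

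**Figure D1:**
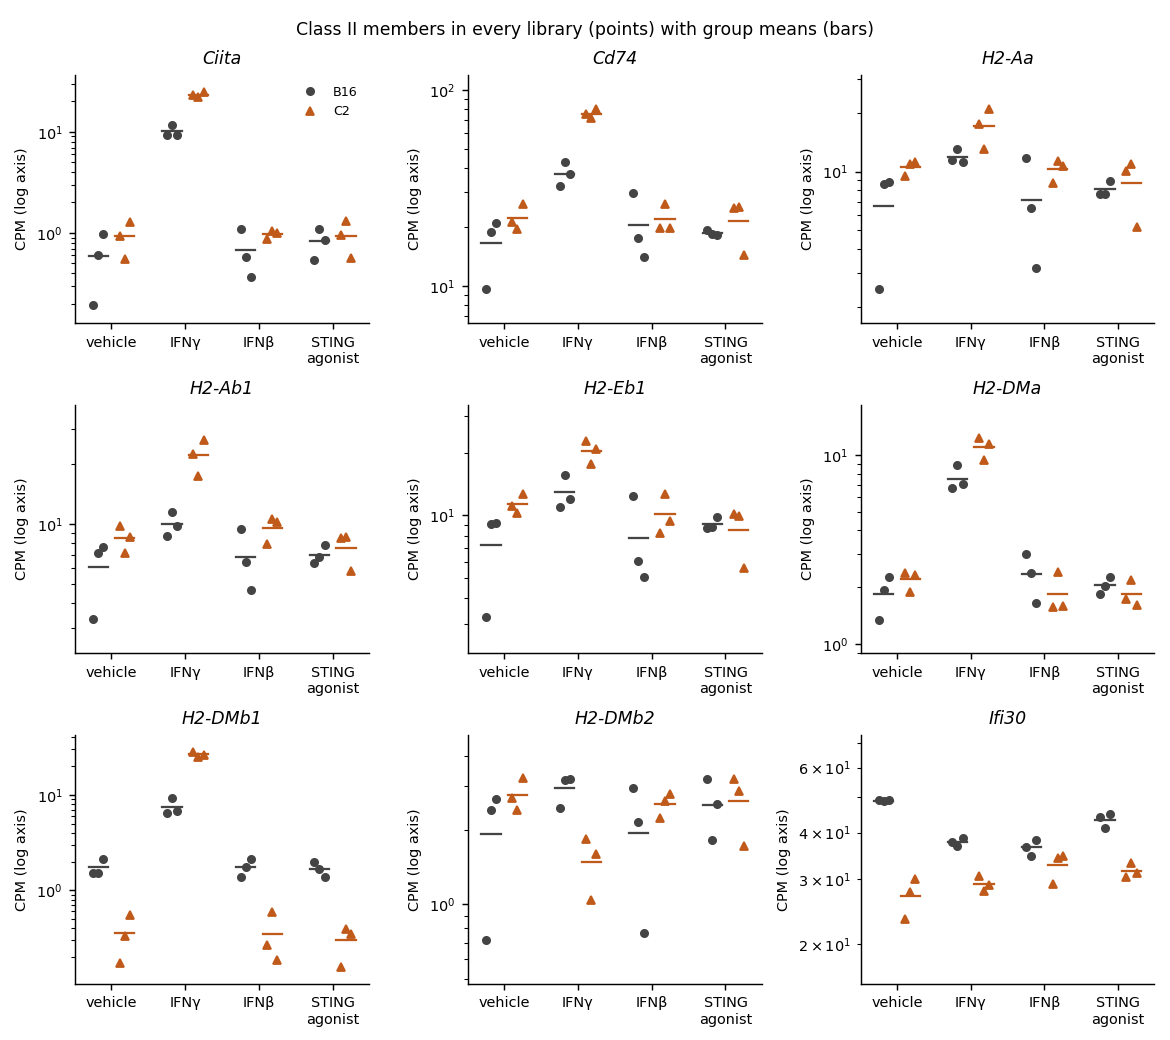
CPM, scaled between libraries by TMM (log axis), of the 9 class II genes in each of the 24 libraries, with B16 as circles, C2 as triangles and group means as bars. Ciita and H2-DMb1 stood apart in IFNγ-treated cells of both lines, and B16 vehicle replicate 1 lay lowest of its group for Ciita, Cd74, H2-Aa, H2-Ab1, H2-Eb1, H2-DMa and H2-DMb2.

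Ciita was close to absent without IFNγ. Its TMM-scaled level, the unit of all CPM values of single genes here, was 0.191, 0.602 and 0.978 CPM in the 3 B16 vehicle libraries and 9.34, 11.7 and 9.33 CPM after IFNγ. In C2 it was 0.934, 0.558 and 1.28 CPM with vehicle and 22.95, 22.1 and 24.6 CPM after IFNγ. The groups did not overlap in either line. The rise was 16.3-fold in B16 (log2 fold change 4.03, SE 0.23, adjusted p 2.88e-48) and 25.6-fold in C2 (4.68, SE 0.20, adjusted p 5.57e-23). Ordered by mean level, C2 IFNγ (23.2 ± 1.295, SD, n = 3) came first and B16 IFNγ (10.1 ± 1.35) second, followed by the 6 other groups between 0.590 and 0.967 CPM, whose libraries overlapped. In the 18 libraries without IFNγ, Ciita had 2.99 to 6.35 reads for every 100 reads of the 11 B-cell genes. After IFNγ it had 40.9 to 54.6 in B16 and 142 to 255 in C2.

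Cd74, which fills the peptide groove during assembly and leads class II to endosomes, was already well covered without IFNγ. It was at 9.66, 18.8 and 21 CPM in B16 vehicle libraries and at 32.3, 42.6 and 37.01 CPM after IFNγ, a 2.23-fold rise (log2 1.16, SE 0.10, adjusted p 4.05e-26). In C2 it went from 21.1, 19.5 and 26.2 CPM to 75.6, 71.4 and 79.8 CPM, a 3.44-fold rise (log2 1.78, SE 0.13, adjusted p 3.93e-15). Neither line showed overlap between the vehicle and IFNγ libraries. Per 100 B-cell reads, Cd74 had 94.2 to 163 reads in libraries without IFNγ, 162 to 199 in B16 IFNγ and 463 to 826 in C2 IFNγ.

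The chains of the peptide-presenting molecule itself rose less than Ciita. H2-Aa, the α chain of I-A, was at 2.49, 8.66 and 8.80 CPM in B16 vehicle and at 11.4, 13.1 and 11.2 CPM after IFNγ. H2-Ab1, its β chain, was at 3.35, 7.18 and 7.67 CPM and then at 8.69, 11.5 and 9.77 CPM. H2-Eb1, the β chain of I-E, whose α chain gene is defective in C57BL/6, was at 3.25, 9.15 and 9.19 CPM and then at 11.03, 15.6 and 12.1 CPM. For all 3 genes the lowest B16 vehicle value came from replicate 1, the library with the fewest B-cell reads. The rises in B16 were 1.75-fold for H2-Aa (log2 0.81, SE 0.14, adjusted p 3.74e-07), 1.61-fold for H2-Ab1 (0.69, SE 0.14, adjusted p 1.36e-05) and 1.75-fold for H2-Eb1 (0.81, SE 0.13, adjusted p 6.43e-08). Without B16 vehicle replicate 1 they were smaller but still called, at log2 fold changes of 0.44 for H2-Aa (adjusted p 0.013), 0.41 for H2-Ab1 (adjusted p 0.0277) and 0.48 for H2-Eb1 (adjusted p 0.00382).

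In C2 the same chains rose as well. H2-Ab1 went from 9.75, 7.14 and 8.60 CPM to 22.5, 17.5 and 26.6 CPM, a 2.67-fold rise (log2 1.41, SE 0.15, adjusted p 2.29e-10). H2-Aa went from 9.51, 10.99 and 11.2 CPM to 17.5, 13.1 and 21.02 CPM (log2 0.73, SE 0.17, adjusted p 0.00109), a call lost in a robust fit (adjusted p 0.151) and in a fit to all 24 libraries (log2 0.72, adjusted p 0.0659). H2-Eb1 went from 11.1, 10.3 and 12.7 CPM to 22.7, 17.7 and 20.9 CPM (log2 0.86, SE 0.15, adjusted p 2.88e-05). The vehicle and IFNγ libraries of C2 did not overlap for any of these genes, and the lowest IFNγ value of each came from replicate 2, the C2 IFNγ library with the fewest B-cell reads.

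Set against the B-cell reads of the same library, the 3 chains separated the lines. In the 18 libraries without IFNγ their reads moved with the B-cell reads: H2-Aa had 36.9 to 59.0 reads per 100, H2-Ab1 35.3 to 56.5 and H2-Eb1 40.3 to 58.5, ranges of 1.598-fold, 1.598-fold and 1.45-fold. B16 IFNγ libraries overlapped these ranges, with 49.1 to 63.2 reads per 100 for H2-Aa, 42.8 to 53.7 for H2-Ab1 and 52.8 to 73.0 for H2-Eb1. H2-Ab1 stayed within its range. Replicates 1 and 2 of B16 IFNγ lay above the range for H2-Aa (63.2 and 61.4) and for H2-Eb1 (60.9 and 73.0), and replicate 3 lay within it. C2 IFNγ libraries lay above them, with 108 to 151 for H2-Aa, 139 to 202 for H2-Ab1 and 121 to 204 for H2-Eb1.

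**Figure D2:**
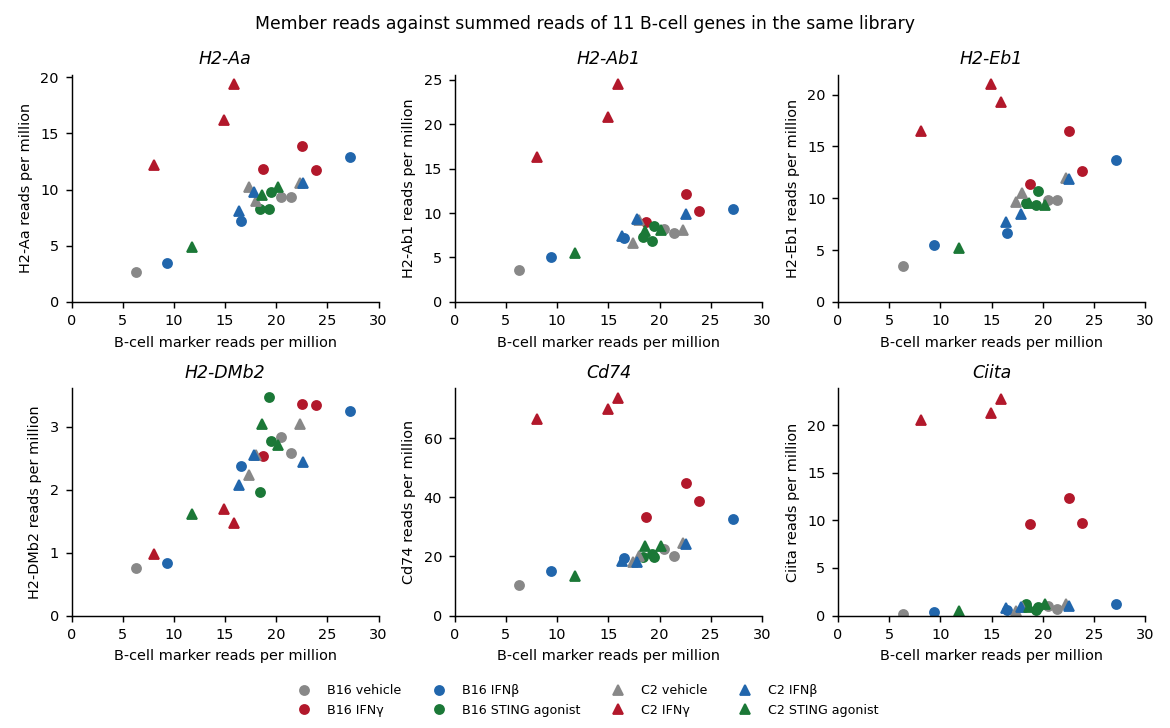
Unscaled CPM of 6 class II genes (vertical axis) against summed unscaled CPM of 11 B-cell genes (horizontal axis) in the same library, with B16 as circles, C2 as triangles and treatments by color. For H2-Aa, H2-Ab1 and H2-Eb1 the C2 IFNγ libraries lay above the band of the 18 libraries without IFNγ. The B16 IFNγ libraries lay within the band for H2-Ab1 and in part above it for H2-Aa and H2-Eb1. For Ciita both sets of IFNγ libraries stood clear of the band and for H2-DMb2 neither did.

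With the B-cell reads of each library as a covariate, the log2 fold changes of the 3 chains were lower in B16 than in C2. The calls in B16 depended on which B-cell genes were used. With 13 B-cell genes (the marker list without Pax5), the B16 log2 fold changes after IFNγ were -0.04 for H2-Aa (adjusted p 0.956), 0.11 for H2-Ab1 (adjusted p 0.77) and 0.11 for H2-Eb1 (adjusted p 0.734), and none of the 3 was called. With the 11 genes left after Ighm and Igkc were also set aside, a choice made after seeing the counts, they were 0.39, 0.38 and 0.44 and all were called (adjusted p 0.0178, 0.0299 and 0.00357). Ighm and Igkc, immunoglobulin chains, were themselves called higher after IFNγ in B16 (log2 0.80 and 1.23), as were Cd79a and Fcer2a, 4 of the 14 B-cell markers tested. In C2 none of the 14 was called after IFNγ (4 at an unadjusted p below 0.05). Their median log2 fold change was -0.518 in C2 and 0.714 in B16. The mean sum of the 11 genes went from 19.21 to 12.97 unscaled CPM in C2 and from 16.06 to 21.7 in B16. The covariate therefore moved with IFNγ, down in C2 and up in B16, and how far that alone shifted the fits was not tested. Both covariate fits in C2 called all of Ciita, Cd74, H2-Aa, H2-Ab1, H2-Eb1, H2-DMa and H2-DMb1. Ciita, Cd74, H2-DMa and H2-DMb1 were called in B16 under both covariate fits. DESeq2 also left H2-Aa, H2-Ab1 and H2-Eb1 uncalled in B16 (adjusted p 0.244, 0.102 and 0.146).

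**Figure D3:**
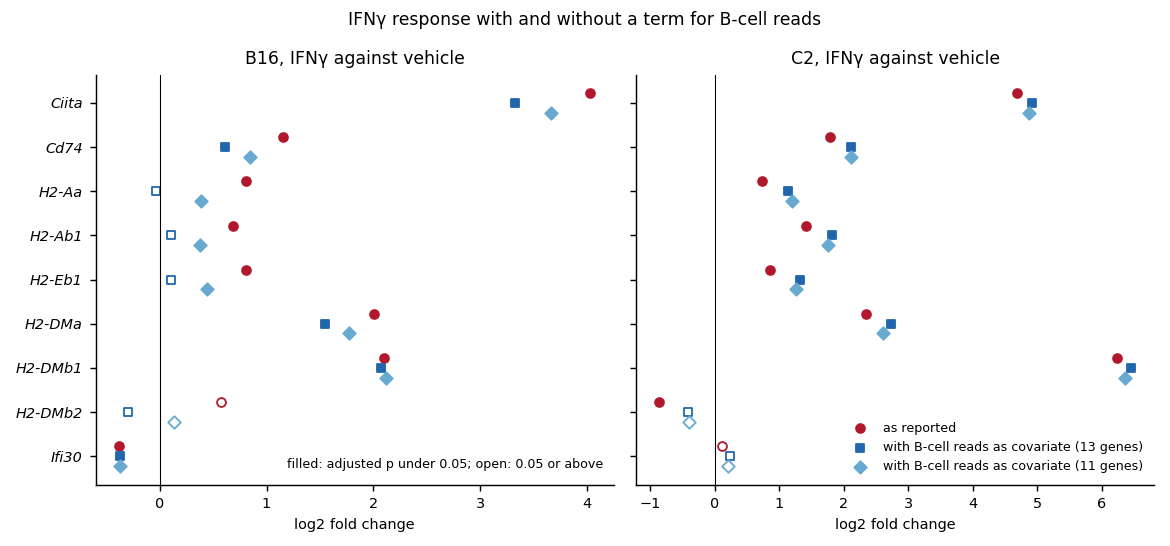
Log2 fold change of each gene after IFNγ in B16 (left) and C2 (right), as reported and with B-cell reads of 13 or 11 genes as a covariate, with filled symbols for calls. In B16 the covariate brought H2-Aa, H2-Ab1 and H2-Eb1 down to between -0.04 and 0.44, and in C2 it moved them up to between 1.14 and 1.82.

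H2-DM removes the invariant chain remnant from the groove and edits the peptides that class II keeps. Its α chain gene H2-DMa rose 4.003-fold in B16 (log2 2.00, SE 0.19, adjusted p 4.97e-21), from 1.34, 1.93 and 2.27 CPM to 6.67, 8.87 and 7.04 CPM. In C2 it rose 5.09-fold (log2 2.35, SE 0.19, adjusted p 1.11e-13), from 2.39, 1.90 and 2.32 CPM to 12.3, 9.38 and 11.4 CPM. Both sets of groups were fully separated.

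The β chain is encoded by a pair of neighboring genes, and the pair parted. H2-DMb1 was at 1.53, 1.52 and 2.15 CPM in B16 vehicle and at 6.52, 9.34 and 6.78 CPM after IFNγ, a 4.29-fold rise (log2 2.10, SE 0.20, adjusted p 6.13e-22). In C2 vehicle it had only 3, 6 and 9 reads, or 0.175, 0.335 and 0.549 CPM, and it reached 28.3, 24.8 and 26.4 CPM after IFNγ, a 75.4-fold rise (log2 6.24, SE 0.23, adjusted p 4.1e-25). Per kilobase of gene length, the mean level of H2-DMb1 was 0.24 CPM per kb in C2 vehicle and 17.9 CPM per kb in C2 IFNγ, beside 17.2 for H2-Eb1, 13.6 for H2-Ab1 and 6.73 for H2-DMa. H2-DMb2 did not follow. It was at 0.718, 2.41 and 2.66 CPM in B16 vehicle and at 2.46, 3.19 and 3.21 CPM after IFNγ, overlapping and not called (log2 0.57, SE 0.24, adjusted p 0.0663). In C2 it fell from 2.68, 2.40 and 3.23 CPM to 1.83, 1.04 and 1.598 CPM (log2 -0.85, SE 0.26, adjusted p 0.0185).

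The fall of H2-DMb2 in C2 was set against the B-cell reads as well. H2-DMb2 had 9.27 to 12.1 reads per 100 B-cell reads in the C2 IFNγ libraries, below the 12.87 to 14.15 of C2 vehicle. Those values lay within the 8.88 to 18 of the 18 libraries without IFNγ, whose lowest value came from B16 IFNβ replicate 3. B16 IFNγ had 13.6 to 14.9. The fall in C2 was not called with either covariate (log2 -0.41, adjusted p 0.555, and -0.40, adjusted p 0.497). Nor was it called without C2 IFNγ replicate 2 (log2 -0.68, adjusted p 0.102) or C2 vehicle replicate 3 (log2 -0.73, adjusted p 0.112). How reads matching both genes were handled is not given in the sources used here, so counts of H2-DMb1 and H2-DMb2 may share reads.

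The promoter sequences of the pair are shown because the 2 genes responded differently, with those of H2-Eb1 and H2-Aa, which responded alike, beside them. They are 80-base stretches upstream of the RefSeq starts (GRCm38.p6), with the X box core GNAACNGAT and the Y box core ATTGG in capitals where present. The motifs were chosen after the sequences were seen, and each was searched on both strands. H2-DMb1 is at chr17:34153067-34153146, H2-DMb2 at chr17:34145096-34145175 and H2-Eb1 at chr17:34305745-34305824, all on the plus strand, and H2-Aa is at chr17:34287855-34287934 on the minus strand.
H2-DMb1: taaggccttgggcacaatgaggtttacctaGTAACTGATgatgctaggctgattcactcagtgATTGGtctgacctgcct
H2-DMb2: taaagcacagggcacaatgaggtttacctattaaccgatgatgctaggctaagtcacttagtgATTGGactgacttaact
H2-Eb1: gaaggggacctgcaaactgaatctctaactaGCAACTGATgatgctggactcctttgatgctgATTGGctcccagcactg
H2-Aa: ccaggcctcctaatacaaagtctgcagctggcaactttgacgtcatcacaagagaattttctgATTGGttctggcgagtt

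The H2-DMb1 and H2-DMb2 stretches were 83.8% identical, with 13 substitutions in 80 bases. Counted from 1 at the 5′ end, the substitutions G31T and T36C, with the H2-DMb1 base first, fell inside the X box core of H2-DMb1, and the second lies at a position where the motif takes any base. The X box core stood 94 bases before the start of H2-DMb1 and 91 bases before that of H2-Eb1. It had no match in the 300-base windows of H2-DMb2, H2-Aa, H2-DMa or Ifi30. A match to this strict pattern is not the only form an X box can take, so the lack of a match does not show that a promoter has none. Of 32851 promoter windows of the same length, 2.05% held the X box core. The Y box core, held by the 4 genes printed above, was found in 37.4%. H2-DMa rose in both lines without a match to the X box core in its windows, at chr17:34122582-34122881 and chr17:34125268-34125567. These lie upstream of the start of the gene as counted (34135182), and the sequence next to that start was not searched. The window of H2-DMb2 (chr17:34144999-34145298) lies inside the gene as counted, which starts at 34143307. H2-Aa was called higher in both lines without a match to the pattern, but its calls depended on the fit, and in B16 on the B-cell reads. No window was used here for Ciita, Cd74 or H2-Ab1.

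Ifi30, which reduces disulfide bonds of proteins in the endosome so that they can be cut to peptides, had the highest level per kilobase of the 9 genes in B16 vehicle (49.9 CPM per kb) and did not rise with IFNγ. It was at 49.0, 48.7 and 48.9 CPM in B16 vehicle and at 37.6, 36.7 and 38.6 CPM after IFNγ, without overlap (log2 -0.38, SE 0.07, adjusted p 4.26e-06). In C2 it was at 23.4, 27.7 and 29.9 CPM with vehicle and at 30.6, 27.8 and 28.8 CPM after IFNγ, overlapping and not called (log2 0.12, SE 0.09, adjusted p 0.505).

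**Figure D4:**
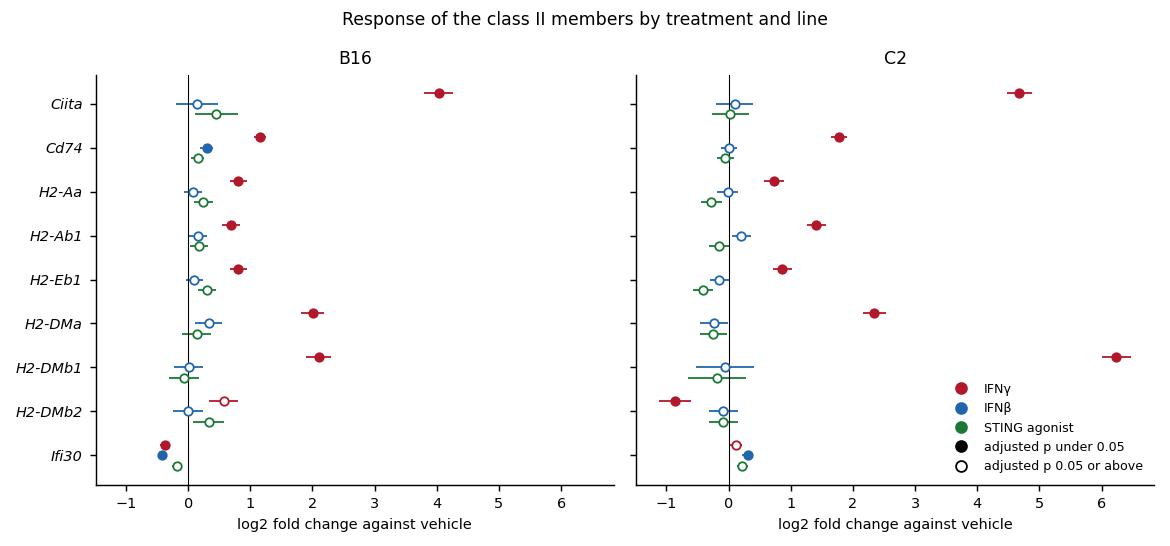
Log2 fold change against vehicle of the 9 class II genes in B16 (left) and C2 (right) for IFNγ, IFNβ and STING agonist, with bars of 1 SE and filled points for calls. IFNγ changes reached 4.03 for Ciita in B16 and 6.24 for H2-DMb1 in C2, whereas IFNβ and STING agonist changes stayed between -0.41 and 0.46.

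IFNβ moved 2 of the 9 genes past the test in B16 and 1 in C2. In B16 only Cd74 rose (log2 0.30, SE 0.10, adjusted p 0.0181) and only Ifi30 fell (log2 -0.41, SE 0.07, adjusted p 3.68e-07), where 12.7% of all genes rose and 11.2% fell. Cd74 was at 29.6, 17.5 and 14.1 CPM after IFNβ, overlapping vehicle, in the order of the B-cell reads of those libraries (27.2, 16.5 and 9.36 unscaled CPM), and was not called without B16 vehicle replicate 1 (log2 0.04, adjusted p 0.892), without B16 IFNβ replicate 1 (log2 -0.08, adjusted p 0.695) or with either covariate. Ifi30 was at 36.6, 34.6 and 38.2 CPM, below all vehicle libraries. The 7 other genes had log2 fold changes between -0.0032 and 0.33, and none passed the test. In C2 only Ifi30 rose (log2 0.31, SE 0.09, adjusted p 0.0134), from the vehicle values above to 29.1, 34.1 and 34.7 CPM, with overlap, where 10.4% of all genes rose and 7.86% fell. That call was lost without C2 vehicle replicate 1 (log2 0.21, adjusted p 0.125) or without C2 IFNβ replicate 2 (0.26, adjusted p 0.0639) or replicate 3 (0.26, adjusted p 0.0656). The 8 other genes had log2 fold changes between -0.24 and 0.21, and Ciita was at 0.865, 1.04 and 0.995 CPM.

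The direct comparison of the interferons gave the size of the gap. Against IFNγ, IFNβ left 7 of the 9 genes lower in B16, where 6.65% of all genes were higher and 7.85% lower. In C2 it left 7 lower and H2-DMb2 higher, where 7.3% were higher and 6.57% lower. Ciita was lower after IFNβ in B16 (log2 -3.88, SE 0.23, adjusted p 3.58e-47) and in C2 (log2 -4.57, SE 0.18, adjusted p 8.53e-24). H2-DMb1 was lower in B16 (log2 -2.09, SE 0.20) and in C2 (log2 -6.29, SE 0.22). The IFNγ libraries in this comparison are those compared with vehicle above. In B16 the libraries of the interferons overlapped for H2-Aa, H2-Ab1 and H2-Eb1. There DESeq2 did not call H2-Aa (adjusted p 0.371), H2-Ab1 (0.288) or H2-Eb1 (0.267), and H2-Ab1 was not called without B16 IFNβ replicate 3 (log2 -0.31, adjusted p 0.121). Nor was H2-Ab1 called in B16 with the 13-gene (log2 -0.27, adjusted p 0.17) or 11-gene B-cell covariate (log2 -0.30, adjusted p 0.114). The call of Cd74 in B16 was lost in 1 of 22 alternative fits (adjusted p 0.127). The H2-DMb2 difference in C2 (log2 0.77, adjusted p 0.0294) was not called without C2 IFNγ replicate 2 or 3 or C2 IFNβ replicate 2 or 3 (log2 0.58 to 0.83, adjusted p 0.057 to 0.174), nor with the 13-gene (log2 0.39, adjusted p 0.531) or 11-gene B-cell covariate (log2 0.35, adjusted p 0.549). In this comparison in C2, 3 of the 14 B-cell markers were also called higher and none lower, with a median log2 fold change of 0.69. The 14 include Pax5, which stood far higher in C2 IFNβ than in the other groups. Without Pax5 the mean sum of the markers was 34.15 unscaled CPM in C2 IFNβ and 23.61 in C2 IFNγ.

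STING agonist moved no class II gene past the test in either line. In B16, 0 of the 9 genes were called by edgeR (2 at an unadjusted p below 0.05) and 0 by DESeq2, where 1.93% of all genes rose and 1.53% fell. In C2, 0 were called by edgeR (2 at an unadjusted p below 0.05) and 0 by DESeq2, where 0.203% rose and 0.156% fell. Ciita was at 0.538, 1.08 and 0.849 CPM in B16 and at 0.945, 1.297 and 0.563 CPM in C2 with STING agonist and overlapped vehicle in both lines. In B16 the log2 fold changes of the 9 genes lay between -0.18 and 0.46, with SE of up to 0.34. In C2 they lay between -0.41 and 0.22, with SE of up to 0.47, so a change of that size in the genes with the fewest reads was not detectable at this depth.

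The 2 lines were compared gene by gene in a fit to all 24 libraries. The IFNγ effect was larger in C2 for H2-DMb1 by 4.12 on the log2 scale (SE 0.38, adjusted p 8.93e-11) and for Ifi30 by 0.48 (SE 0.11, adjusted p 0.0032), and lower for H2-DMb2 (log2 -1.44, SE 0.47, adjusted p 0.0447), a call lost in 17 of 33 alternative fits. Of these, 12 left out 1 library, namely any B16 IFNγ or B16 STING agonist library, B16 vehicle replicate 1, B16 IFNβ replicate 2, C2 vehicle replicate 1 or 3, or C2 IFNγ replicate 2 or 3 (log2 -1.02 to -1.52, adjusted p 0.0511 to 0.172). Over all genes, 4.52% were called higher and 4.95% lower in this comparison. For Ciita the difference was 0.63 (SE 0.45, adjusted p 0.478), and for Cd74 and H2-Ab1 it was 0.61 (SE 0.27, adjusted p 0.177) and 0.71 (SE 0.29, adjusted p 0.125), none of them called. Without B16 vehicle replicate 1 the differences for Cd74 (0.92, adjusted p 0.0141) and H2-Ab1 (1.04, adjusted p 0.00842) were called. With the 13-gene covariate 8 of the 9 genes were called higher, among them Ciita (1.55, adjusted p 0.0338) and H2-DMa (1.15, adjusted p 0.0103), which the 11-gene covariate did not call (adjusted p 0.0712 and 0.0795). With the 11-gene covariate the differences for Cd74 (1.24), H2-Aa (0.79), H2-Ab1 (1.35) and H2-Eb1 (0.79) were called (adjusted p 1.5e-06, 0.00704, 1.46e-06 and 0.0107) and that for H2-DMb2 was not (-0.56, adjusted p 0.435). The IFNβ effect differed only for Ifi30 (0.69 higher in C2, SE 0.11, adjusted p 1.8e-05), where 6.16% of all genes were higher and 5.9% lower. For STING agonist no gene of the 9 was called by edgeR (2 at an unadjusted p below 0.05), whereas DESeq2 called Ifi30 (0.38 higher in C2, adjusted p 0.0189), where 0.568% of all genes were higher and 1.56% lower.

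Without treatment the lines differed most in H2-DMb1, which was lower in C2 than in B16 (log2 -2.30, SE 0.37, adjusted p 6.73e-07). Ifi30 was also lower in C2 (log2 -0.86, SE 0.08, adjusted p 2.62e-12) and H2-Eb1 higher (log2 0.63, SE 0.25, adjusted p 0.0287), where 28.7% of all genes were higher and 29.3% lower. Vehicle libraries of the lines did not overlap for these 3 genes. The H2-Eb1 difference was not called without B16 vehicle replicate 1 (log2 0.26, adjusted p 0.372) or C2 vehicle replicate 3 (log2 0.55, adjusted p 0.101), nor without B16 IFNγ replicate 3 or any B16 STING agonist library, which share the estimate of spread (log2 0.59, adjusted p 0.0507 to 0.0514). It was also not called with the 13-gene B-cell covariate (log2 0.18, adjusted p 0.372), by DESeq2 (log2 0.65, adjusted p 0.105) or in a robust fit (adjusted p 0.144). H2-DMb1 was still called lower without B16 vehicle replicate 1 (log2 -2.43, adjusted p 8.9e-07).

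Among the genes for proteins that seat CIITA on class II promoters, Rfx5 moved most. Rfx5, the DNA-binding subunit of RFX, rose after IFNγ from a mean of 6.999 to 12.2 CPM in B16 (log2 0.80, SE 0.13, adjusted p 1.51e-08) and from 6.32 to 18.9 CPM in C2 (log2 1.6, SE 0.13, adjusted p 1.68e-13), and after IFNβ in C2 to 12.7 CPM (log2 1.05, SE 0.13, adjusted p 2.57e-08). Of the 7 genes for RFX, NF-Y and CREB1, IFNγ raised 3 in B16 (Rfx5, Rfxank and Creb1) and lowered Nfya, and raised 2 in C2 (Rfx5 and Nfyb). IFNβ lowered 2 and raised none in B16, and raised Rfx5 and lowered Creb1 in C2. STING agonist raised 1 in B16 (Rfxank) and none in C2 by edgeR (1 at an unadjusted p below 0.05). Counts of these and the following pathway genes stand beside all-gene shares of 12% higher and 10.8% lower with IFNγ, 12.7% and 11.2% with IFNβ, and 1.93% and 1.53% with STING agonist in B16. In C2 the shares were 7.89% and 5.66% with IFNγ, 10.4% and 7.86% with IFNβ, and 0.203% and 0.156% with STING agonist. Apart from Rfx5, the called changes of these genes against vehicle lay between log2 -0.32 and 0.41.

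Upstream of Ciita, genes of interferon signaling rose with both interferons, and Irf1 rose more with IFNγ. Irf1, an activator of the IFNγ-responsive Ciita promoter, went from a mean of 12.3 CPM in B16 vehicle to 637 CPM with IFNγ and 39.3 CPM with IFNβ, and from 22.2 to 573 and 106 CPM in C2. Against IFNγ, IFNβ left Irf1 lower by 4.01 in B16 (log2 -4.01, SE 0.06) and by 2.42 in C2 (log2 -2.42, SE 0.07). Of the 7 genes of IFNγ signaling, IFNγ raised 5 and lowered Ifngr2 in B16, and raised 4 and lowered Ifngr2 in C2. IFNβ raised 4 and lowered Ifngr2 in B16 and raised 5 in C2. Of the 5 genes of IFNβ signaling, IFNβ raised 4 in B16 and 3 in C2, among them Stat2 (log2 4.16 and 4.70). STING agonist raised 2 of the 7 and 2 of the 5 in B16, and none in C2 by edgeR (1 of each list at an unadjusted p below 0.05).

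Nlrc5, the class I counterpart of Ciita and a member of the same protein family, rose with both interferons. Its mean was 0.919 CPM in B16 vehicle, 88.1 CPM with IFNγ and 22.9 CPM with IFNβ, and 0.115, 27.7 and 17.5 CPM in C2. The IFNβ rise was 4.59 on the log2 scale in B16 (SE 0.14, adjusted p 1.54e-111) and 7.20 in C2 (SE 0.25, adjusted p 3.67e-26), where Ciita had no call. All 5 class I genes (Nlrc5, B2m, H2-K1, H2-D1 and Tap1) rose with both interferons in both lines, and 4 rose with STING agonist in B16, Nlrc5 not among them. In C2 none of the 5 was called with STING agonist by edgeR (2 at an unadjusted p below 0.05).

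**Figure D5:**
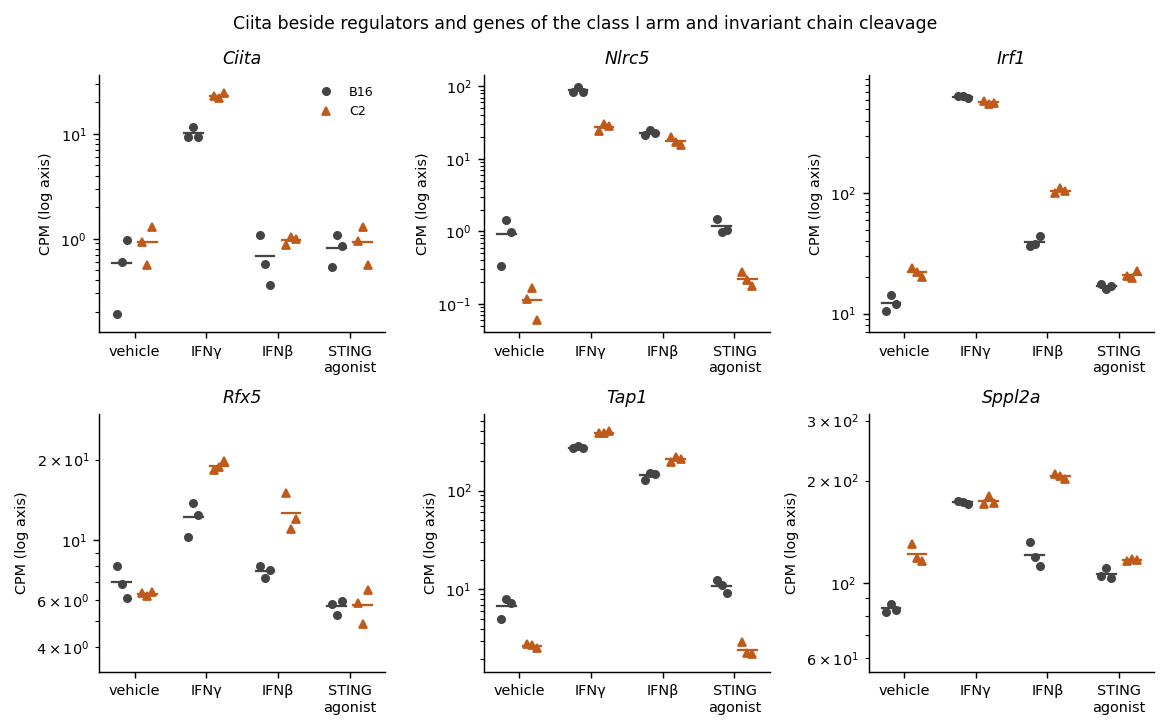
CPM (log axis) of Ciita, Nlrc5, Irf1, Rfx5, Tap1 and Sppl2a in each library, with B16 as circles, C2 as triangles and group means as bars. Nlrc5 and Tap1 stood above vehicle with IFNγ and IFNβ in both lines, whereas Ciita did so only with IFNγ.

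Genes that cut and chaperone the class II cargo were tested as a list of 7, with a median log2 fold change after IFNγ of 0.86 in B16 and -0.35 in C2. The IFNγ effect was called lower in C2 for 2 of them, Ctsl and Sppl2a, and for the other 5 the difference was not called. Of the 7, IFNγ raised 5 in B16 (H2-Ob, Ctss, Ctsl, Lgmn and Sppl2a) and in C2 raised Sppl2a and lowered Ctsl. Sppl2a, the intramembrane protease that clears the last fragment of the invariant chain, rose with IFNγ in B16 (log2 1.03, SE 0.06, adjusted p 7.81e-50) and C2 (log2 0.54, SE 0.07, adjusted p 1.79e-08) and with IFNβ in both (0.53 and 0.80). Ctsl, a cathepsin that cuts the invariant chain, rose by 0.16 in B16 and fell in C2 (log2 -0.35, adjusted p 0.000192), and the difference between the lines was called (log2 -0.53, SE 0.09, adjusted p 4.17e-05). H2-Ob, a B-cell chain that restrains H2-DM, rose in B16 from a mean of 1.10 to 2.07 CPM (adjusted p 0.0249), beside the called B-cell markers above. Ctss, the invariant chain protease of antigen-presenting cells, stood at means of 1.10 to 2.16 CPM in all 8 groups. IFNβ raised 3 of the 7 in B16 and 1 in C2, and STING agonist raised 2 in B16 and none in C2 by edgeR (0 at an unadjusted p below 0.05). Marchf8, a ubiquitin ligase that can remove surface class II, rose with IFNγ in B16 (log2 0.23, adjusted p 0.00283) and fell in C2 (log2 -0.38, adjusted p 8.29e-05). Marchf1, the other ligase tested, had means of at most 0.449 CPM and was not called.

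Outside the class II genes, those whose pattern over the 8 group means was most like that of Ciita were Gbp8, Cxcl9, Lap3, Apol10b and Ggct, with Pearson correlations of log2(CPM + 0.5) of 0.996, 0.990, 0.976, 0.968 and 0.965 among 13353 genes. For Cd74 they were Gbp8, Serpina3f, Mpp1, Ggct and Apol10b, with correlations from 0.9528 to 0.9748. Each correlation rests on 8 means, among which those of the IFNγ groups stood highest for both Ciita and Cd74. The list describes likeness only. Gbp8, a guanylate-binding GTPase, had means of 3.74 CPM in B16 IFNγ and 9.33 CPM in C2 IFNγ and at most 0.278 CPM elsewhere. Cxcl9, a chemokine for activated T cells, had 14.0 and 33.8 CPM with IFNγ and at most 0.282 CPM elsewhere. Among the 9 class II genes, H2-DMa (0.988) and Cd74 (0.969) were most like Ciita, H2-DMb1 stood at 0.894, and H2-DMb2 and Ifi30 had correlations of -0.31.

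Of the 9 markers of myeloid and dendritic cells that were tested, IFNγ lowered 1 in B16, where 10.8% of all genes fell. It raised 1 in C2, where 7.89% rose. Sums of all 10 genes of that list were at 19.1 to 23.6 unscaled CPM in B16 IFNγ against 19.6 to 22.5 in vehicle. In C2 they were at 2.92 to 4.95 with IFNγ against 2.81 to 4.15 with vehicle. T-cell markers summed to at most 6.30 unscaled CPM in any library. Pax5, a B-cell factor left out of the sums above, stood at a mean of 35.3 CPM in C2 IFNβ and at most 1.85 CPM in the other groups.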

How the data were processed

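RNA of 24 libraries in 8 groups was sequenced as paired ends. The authors trimmed adaptors with cutadapt, aligned with STAR and counted reads per gene with Rsubread, and deposited raw counts, 1 file per library. The processing notes name mm10. Annotation release, strandedness and the handling of multi-mapping reads are not given in the sources used here. Single-cell libraries of the same series were not used here, and some items of the gene lists and of the line's genotype are not reported here.

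Genes with at least 10 reads combined over 24 libraries were kept (21138 of 49315), after the filter in the study's methods. Counts were scaled by TMM and tested with edgeR 4.0.16 (quasi-likelihood, R 4.3.3), with the 12 libraries of 1 line in each fit within a line and all 24 in fits between lines, and Benjamini-Hochberg adjustment over all genes kept. The study's methods use DESeq2, which was run as an alternative (version 1.42.0). Levels are counts per 1000000 reads on genes (CPM) with TMM over 24 libraries, and marker sums and reads per 100 B-cell reads are unscaled. Per-kilobase levels used the length in the files. The SE of a log2 fold change was taken from its F statistic. Only the edgeR fit of IFNγ against vehicle within each line was tested on simulated counts, in which genes varied independently of each other. Fits between lines, with covariates or by DESeq2 were not tested in this way.

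All 9 class II genes are named in every comparison, with any gene of 6 pathway lists (CIITA partners, loading and proteolysis, surface turnover, IFNγ signaling, IFNβ signaling, class I), the 5 genes most like Ciita and Cd74 among genes with a group mean of at least 1 CPM, and marker lists. Members and lists were chosen with earlier results of these data known. Alternatives were RLE size factors, other filters, a robust fit, other sets of libraries, a replicate block, B-cell covariates and leaving out each library. Promoter windows (RefSeq, GRCm38.p6, 250 bases before to 50 after a start) were matched by symbol for 6 of 9 genes. Depth was 15543131 to 32266795 reads on genes.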

Additional observations from a re-analysis of the deposited data

Results flagged for a closer look

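The response of 3 class II genes differed between the lines by a test of the difference itself, the interaction term of edgeR's quasi-likelihood fit to all 24 libraries with Benjamini-Hochberg adjustment. For H2-DMb1 the IFNγ effect was 4.12 higher in C2 on the log2 scale (adjusted p 8.93e-11), from log2 fold changes of 6.24 in C2 and 2.10 in B16. Its level after IFNγ was above vehicle in 3 of 3 libraries in each line, and C2 vehicle libraries held 18 reads of it in all.

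For H2-DMb2 the difference was -1.44 (adjusted p 0.0447), from -0.85 in C2 and 0.57 in B16, the second not called by itself. H2-DMb2 had 9.27 to 12.1 reads per 100 B-cell reads in C2 IFNγ, beside 12.87 to 14.15 in C2 vehicle. In B16 it had 13.6 to 14.9 with IFNγ and 12.07 to 13.82 with vehicle. With B-cell reads as a covariate the difference between the lines was -0.15 (adjusted p 0.997).

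For Ifi30 the IFNγ effect was 0.48 higher in C2 (adjusted p 0.0032), from 0.12 in C2, not called, and -0.38 in B16. Its IFNβ effect was 0.69 higher in C2 (adjusted p 1.8e-05), from 0.31 in C2 and -0.41 in B16. Both lines were compared with their own vehicle libraries, and the IFNγ and IFNβ effects of a line share those libraries.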

How the results depend on the processing

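Of the fold changes of class II genes that were called or came from a comparison with IFNγ, 1178 values kept direction and call under an alternative, 72 lost the call, 23 gained one and 14 changed sign. The 56 other fold changes, none called, gave 1485 values, of which 119 changed sign and 41 gained a call, 3 of them with the sign changed. With DESeq2 or a robust fit, IFNγ raised 4 genes in B16 and IFNβ raised 0, IFNβ left 4 (DESeq2) or 3 (robust) lower than IFNγ in B16, and C2 vehicle had 0 higher than B16 vehicle. With the 13-gene B-cell covariate IFNγ raised 4 in B16, IFNβ raised 0 and lowered 2 in B16, IFNγ lowered 0 in C2, IFNβ left 0 higher than IFNγ in C2, the IFNγ effect was higher in C2 for 8 and lower for 0, and 0 were higher in C2 vehicle. With the 11-gene covariate these were 0 raised by IFNβ in B16, 0 lowered by IFNγ in C2, 0 higher with IFNβ in C2, 6 and 0 for the IFNγ effect, and 2 for vehicle. A fit to all 24 libraries gave 0 raised by IFNβ in B16, 0 lowered by IFNγ in C2 and 0 higher with IFNβ in C2. With a filterByExpr minimum, IFNβ raised 0 in B16. The IFNγ effect was lower in C2 for 0 genes with RLE size factors, filterByExpr or a robust fit, and higher for 4 with no filter or only the groups compared, settings that also gave 4 higher in C2 vehicle. The STING agonist effect was higher in C2 for 1 gene with DESeq2, filterByExpr, no filter, a robust fit, either covariate, only the groups compared or a replicate block, and lower for 1 with no filter.

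Direction changed with the 13-gene covariate for H2-Aa (-0.036) and H2-DMb2 (-0.29) with IFNγ in B16, for Cd74 with IFNβ in B16 (-0.0151), and for the line difference of H2-Aa with IFNγ (1.15, and 0.79 with the 11-gene covariate). The cause was not tested. Leaving out 1 library, Cd74 with IFNβ in B16 ranged from -0.0762 to 0.51, and the line difference with IFNγ from -0.29 to 0.33 for H2-Aa and from -0.12 to 0.42 for H2-Eb1. Leaving out 1 library, IFNγ raised 7 to 8 genes in B16 and 7 in C2, and lowered 0 to 1 in C2. IFNβ raised 0 to 3 and lowered 1 to 3 in B16, and raised 0 to 1 in C2. IFNβ left 6 to 8 lower than IFNγ in B16, and 7 lower and 0 to 1 higher in C2. STING agonist raised 0 to 2 in B16. The line difference was higher for 2 to 4 and lower for 0 to 1 with IFNγ, higher for 1 with IFNβ and for 0 to 1 with STING agonist, and for vehicle higher for 0 to 4 and lower for 2.

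Between same-numbered libraries of a line, correlations of deviations from the group means ran from -0.145 to 0.164 in B16 and -0.221 to 0.203 in C2. Such values cannot show whether libraries of the same number shared a culture or batch. With a replicate block, H2-DMb2 with IFNγ in B16 became called (log2 0.57, adjusted p 0.0424), as did the line difference of Ifi30 with STING agonist (0.40, adjusted p 0.044), 1 gene in place of 0. Over all genes, STING agonist called 732 in B16, but 459 with all 24 libraries, 1271 with only the groups compared and 415 to 965 leaving out 1 library. In C2 it called 76, but 44 with filterByExpr, 159 with no filter, 126 with the block, 132 with only the groups compared and 42 to 107 leaving out 1 library. The covariate lowered IFNγ calls in C2 from 2864 to 1752, those of IFNβ against IFNγ in C2 from 2931 to 1759 (1821 with 11 genes) and those of the IFNγ line difference from 2001 to 1161. The STING agonist line difference called 449, 743 by DESeq2 and 793 with only the groups compared. Depth limits Ciita and H2-DMb1 without IFNγ, at 44 and 125 reads summed over B16 vehicle and 47 and 18 over C2 vehicle.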
